A study of Mus musculus with 11 samples.

Results

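Motile cilium genes, 45 genes that encode parts, assembly factors and regulators of beating cilia, were examined in 3 regions of the mouse testis: the rete testis (RT), the Sertoli valve (SV) and the convoluted seminiferous tubules (ST). The genes were chosen by name, and each was represented by the probe set with the highest mean log2 signal among those annotated with that gene symbol alone. By this rule 42 of the 45 genes were measured, out of 18194 genes with a probe set of their own, and Dnaaf3, Mcidas and Gmnc were not analysed here. All samples came from W/Wv mice of 7 weeks, which carry mutant alleles of the receptor gene Kit and whose tubules hold few germ cells. RNA of each region was hybridized to Affymetrix Mouse Genome 430 2.0 arrays, 3 for RT, 4 for SV and 4 for ST, each from a pool of 20 testes. No treatment differed between the regions, and the regions were cut apart after trypan blue had been injected through the efferent ducts. These numbers of arrays come from the labels of the samples, and the series' own description gives 3 replicates for each region. The SV piece is the short end of the tubule where it joins the rete, and the study's methods state that SV pieces very likely hold some RT cells. Values are MAS5.0 signals on a linear scale, and the array medians were 99.6–110.4 for RT arrays, 79.0–96.5 for SV arrays and 65.8–85.1 for ST arrays.

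A motile cilium is built on an axoneme, a ring of doublet microtubules around a central pair, whose outer and inner dynein arms slide the doublets and whose radial spokes and nexin links control the beat. Multiciliated cells make many such cilia under the transcription factors FOXJ1, RFX2 and RFX3, and in the male tract they stand in the epithelium of the efferent ducts, which continue from the rete. The sperm flagellum uses much of the same axoneme, so that germ cells also express many of these genes, while Sertoli cells bear no motile cilia.

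Most motile cilium genes had far more signal in RT than in ST. Of the 42 measured members, 33 were called higher in RT than in ST (78.6%, against 12.5% of all 18194 genes) and 1 was called lower (against 7.34% of all genes). A gene was called when the change was over 2-fold and limma gave a p under 0.05 after Benjamini-Hochberg adjustment across the 45101 probe sets of the array. The median log2 fold change over the 42 members was 3.50, against 0.08 over all genes, and 9 of the 33 higher members exceeded 5 on the log2 scale. In all 33, every RT array lay above every ST array, as in 98.0% of the 2272 genes called higher over the whole array. Of the 33, 25 were also called higher in RT than in SV and 9 were called higher in SV than in ST. Over all genes 1166 and 435 were called so, and how many of these are among the 2272 was not counted. Mean signals ran in the order RT, SV, ST from high to low in 30 of the 33 (90.9%, against 93.9% of the 2272). Centring each array on its own median moved the median of all genes to -0.35 and the calls over all genes to 1452 higher and 2724 lower, against 2272 higher and 1335 lower. Member counts then were 30 higher and 3 lower, the added lower calls being Mns1 and Spag6. Over all probe sets, arrays of different regions deviated together within replicates 1 and 2 and within replicates 3 and 4, but not between these sets. The labels do not say why, and RT has no replicate 4. In replicates 1 and 2 alone 34 members were called higher in RT than in ST (against 12.9% of all genes), and in replicates 3 and 4 alone, with a single RT array, 11 were (against 3.62% of all genes). Since whole regions were sampled, fewer cells of a type and less RNA per cell cannot be told apart. The labels call the replicates biological, and the p-values measure the spread between these pools.

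**Figure D1:**
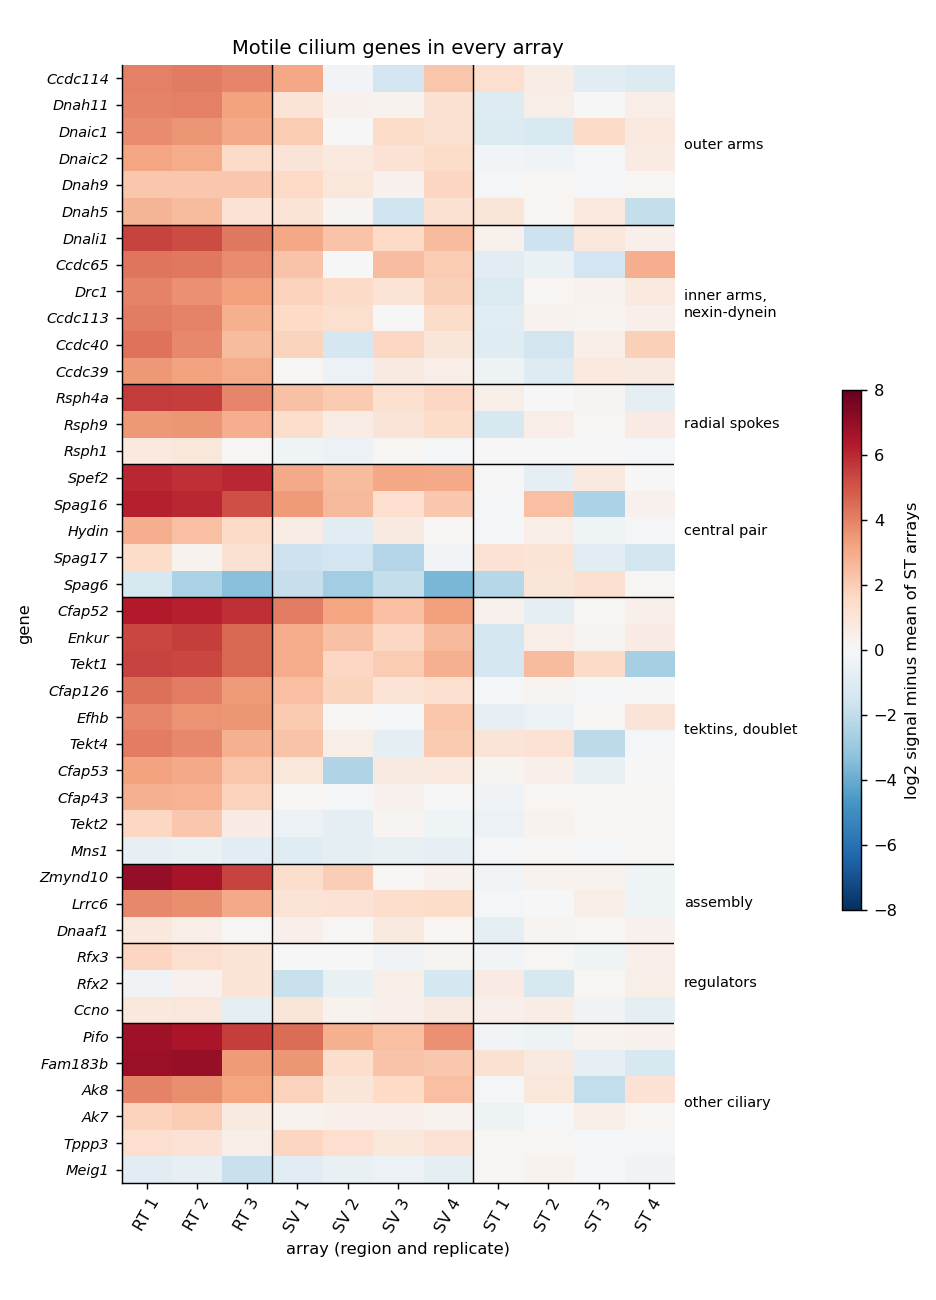
Log2 signal minus the mean of the ST arrays (colour) for the 42 measured motile cilium genes (rows, grouped by role and ordered by the change in RT within each group) in 3 RT, 4 SV and 4 ST arrays (columns). The 33 genes called higher in RT form red columns under RT, for all but Spef2 palest in RT replicate 3, and most of them are paler in SV than in RT.

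Outer dynein arm genes were higher in RT in 5 of 6 cases, with a median log2 fold change of 2.99. Ccdc114, part of the docking complex that anchors the outer arm, had signals of 143, 156 and 133 in RT, 76.4, 7.58, 3.03 and 42.0 in SV, and 22.5, 13.2, 4.95 and 4.19 in ST. The log2 fold change of Ccdc114 in RT against ST was 4.02 ± 0.99 (standard error, limma adjusted p = 0.00845), while the SV arrays spread widely, all below RT and overlapping ST. Dnah11, an outer arm heavy chain, had signals of 511, 546 and 304 in RT, 68.4, 42.0, 40.3 and 76.4 in SV, and 15.8, 45.1, 33.5 and 48.0 in ST. Its RT arrays stood apart from both other regions, with 3.75 ± 0.43 against ST (limma adjusted p = 3.15e-05) and 3.01 ± 0.43 against SV (adjusted p = 6.27e-04). The intermediate chain genes Dnaic1 and Dnaic2 had log2 fold changes of 3.44 and 2.54 in RT against ST. Dnah9, another heavy chain, differed from these in being nearly level among the RT arrays, at 853, 843 and 841, with 579, 367, 241 and 633 in SV and 175, 211, 171 and 213 in ST. The 3 regions did not overlap for Dnah9, which was called in RT against ST (2.14 ± 0.27, adjusted p = 7.56e-05) and in SV against ST (1.15 ± 0.25, adjusted p = 0.0327). Dnah5, the remaining heavy chain, had a log2 fold change of 2.13 ± 0.81 in RT against ST and was not called (adjusted p = 0.0729).

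All 6 genes of the inner arms, the nexin-dynein regulatory complex and its ruler were called higher in RT than in ST, with log2 fold changes of 3.20 to 4.98. Dnali1, a light chain of the inner arms, had signals of 722, 633 and 316 in RT, 139.8, 82.1, 51.2 and 94.8 in SV, and 21.5, 5.34, 30.8 and 21.8 in ST. No arrays of different regions overlapped for Dnali1, and its change was 4.98 ± 0.56 in RT (adjusted p = 2.88e-05) and 2.37 ± 0.52 in SV (adjusted p = 0.0311), both against ST. Ccdc65, a subunit of the nexin-dynein regulatory complex, had signals of 127, 124 and 91.0 in RT, 31.2, 6.26, 35.4 and 26.5 in SV, and 3.64, 4.43, 2.27 and 49.9 in ST. Its RT arrays were above all others, with 4.11 ± 0.95 against ST (adjusted p = 0.00583), and ST replicate 4 was the highest of the ST and SV arrays. Drc1, of the same complex, had 3.63, Ccdc39 and Ccdc40, which form the ruler along the doublet, had 3.20 and 3.57, and the coiled-coil gene Ccdc113 had 3.63.

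Radial spoke head genes divided. Rsph4a had signals of 1068, 1011 and 319.8 in RT, 111, 92.7, 52.3 and 67.5 in SV, and 29.6, 22.6, 24.95 and 13.4 in ST. The regions were separate for Rsph4a in the order RT, SV, ST, although RT replicate 3 had less than either other RT array, and the log2 fold change was 5.01 ± 0.45 in RT (adjusted p = 5.83e-06) and 1.83 ± 0.42 in SV (adjusted p = 0.0384). Rsph9 had signals of 739.6, 776 and 495 in RT, 178, 100.2, 135 and 185 in SV, and 27.6, 95.8, 69.7 and 103 in ST, which gave 3.32 ± 0.41 in RT against ST (adjusted p = 5.58e-05). SV and ST arrays overlapped for Rsph9, and SV was not called (1.14, adjusted p = 0.170). Rsph1 was the exception, with bright signals in every region and a log2 fold change of 0.59 ± 0.19 in RT against ST, below 2-fold (adjusted p = 0.0403).

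Of 5 central pair genes 3 were higher in RT than in ST. Spef2 had signals of 327, 288 and 329 in RT, 41.4, 28.3, 43.0 and 40.2 in SV, and 5.12, 2.88, 8.60 and 4.75 in ST. By this probe set Spef2 formed 3 separate groups, with 5.99 ± 0.46 in RT against ST (adjusted p = 1.71e-06), 2.93 ± 0.42 in SV against ST (adjusted p = 0.00216) and 3.06 ± 0.46 in RT against SV (adjusted p = 8.25e-04). Its ST signals were all under 10, and with signals below 32 set to 32 the change of Spef2 in SV against ST was 0.28 and no longer called (adjusted p = 0.257, range over its alternatives without a call 0.0136–0.536). Of the 3 probe sets of Spef2, only the chosen 1 was called in SV against ST. Another read 155, 124 and 30.4 in RT, lowest in replicate 3, and was not called in RT against SV (limma adjusted p = 0.0514). The remaining probe set of Spef2 read 51.8, 36.9 and 49.2 in RT and was called there. Spag16 had signals of 430.04, 373 and 209 in RT, 61.6, 35.3, 14.7 and 25.1 in SV, and 5.14, 30.1, 0.983 and 7.24 in ST. The RT arrays of Spag16 stood above all others (5.81 ± 0.91 against ST, adjusted p = 3.55e-04), while ST varied widely and overlapped SV. Hydin, a very large central pair protein, rose by 2.28 ± 0.46 on the log2 scale in RT against ST (adjusted p = 0.00247). Spag6 and Spag17 were below the array median in every array and were not called, with log2 fold changes of -2.36 ± 0.94 (adjusted p = 0.0881) and 0.98 ± 0.83 (adjusted p = 0.455). Spag6l, a close relative of Spag6 that is not among the 45 and was looked up after the values had been seen, had signals of 569.9, 453 and 217 in RT, 86.1, 13.6, 5.09 and 60.8 in SV, and 2.37, 38.5, 34.3 and 3.59 in ST. Spag6l had a log2 fold change of 5.22 ± 1.12 in RT against ST (adjusted p = 0.00352).

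Tektins and other proteins of the doublet microtubules gave 9 of 10 genes higher in RT than in ST. Cfap52, a protein inside the doublet, had signals of 1845, 1725 and 1344 in RT, 398, 207, 125 and 223 in SV, and 29.2, 13.4, 24.3 and 30.5 in ST. Every region was apart from the next for Cfap52, with 6.13 ± 0.37 in RT (adjusted p = 3.89e-07) and 3.24 ± 0.34 in SV (adjusted p = 2.16e-04), both against ST. Enkur, which lies in the doublet lumen as well, had signals of 1640.2, 1882 and 985 in RT, 324, 211, 129 and 245 in SV, and 15.3, 58.9, 48.8 and 64.6 in ST. Enkur rose by 5.14 ± 0.46 on the log2 scale in RT (adjusted p = 5.65e-06) and 2.39 ± 0.43 in SV (adjusted p = 0.00945), again with no overlap. Cfap126, also known as Flattop and involved in basal body placement, had signals of 4443, 3596 and 2243 in RT, 1101, 718, 447 and 501 in SV, and 194, 240.3, 196 and 201 in ST. It was level among the ST arrays and rose by 3.99 ± 0.29 in RT (adjusted p = 1.16e-06) and 1.65 ± 0.27 in SV (adjusted p = 0.00485) against ST. The tektins Tekt1, Tekt4 and Tekt2, filament proteins of the doublet wall, had 5.12, 3.59 and 1.48 in RT against ST, and Efhb, Cfap53 and Cfap43 had 3.69, 2.80 and 2.47. Tekt2 was no longer called with each array centred on its median (1.06, adjusted p = 0.0978, range over its alternatives without a call 0.0528–0.698).

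Mns1, an axonemal protein needed for the sperm flagellum, was the member of this group that went the other way. Its signals were 603, 647 and 495 in RT, 483, 544, 633 and 608 in SV, and 897, 982, 848 and 1044 in ST, so that both RT and SV lay wholly below ST. The log2 fold change of Mns1 was -0.70 ± 0.15 in RT (adjusted p = 0.00317) and -0.74 ± 0.14 in SV (adjusted p = 0.0124) against ST, under 2-fold in both and so not called. Meig1, which acts in sperm tail formation and was listed with the other ciliary proteins, had signals of 449, 503 and 236 in RT, 439, 525, 587 and 455 in SV, and 863, 966, 755 and 646 in ST. Meig1 was the 1 member called lower in RT than in ST (-1.08 ± 0.24, adjusted p = 0.00421), and SV again lay below every ST array without a call (-0.68 ± 0.22, adjusted p = 0.158). Without RT replicate 3 the change of Meig1 was -0.75, and without ST replicate 2 it was -0.99, both under 2-fold.

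Dynein arm assembly factors act in the cytoplasm, where the arms are put together before transport into the cilium. Zmynd10, an assembly factor of this kind, had signals of 316, 237 and 102 in RT, 6.34, 9.56, 2.59 and 3.08 in SV, and 2.11, 2.95, 3.02 and 1.90 in ST. Zmynd10 differed from Cfap52 or Pifo in that SV stayed near ST (0.94 ± 0.63, adjusted p = 0.600), with 6.33 ± 0.68 in RT against ST (adjusted p = 1.93e-05) and 5.39 ± 0.68 in RT against SV (adjusted p = 3.14e-04). Its SV and ST signals were all under 10, and with signals below 32 set to 32 its change in RT against ST was 2.62, below the 5.66 of Cfap52 and the 5.33 of Pifo under the same floor. Without a floor its fold change was the highest of the 42 genes. Lrrc6 had signals of 246, 228 and 140.2 in RT, 36.9, 37.7, 44.9 and 47.2 in SV, and 15.99, 16.99, 23.3 and 13.2 in ST, with 3.55 ± 0.38 in RT against ST (adjusted p = 1.80e-05). The SV arrays of Lrrc6 lay between the other regions without overlap, at 1.28 ± 0.35 against ST (adjusted p = 0.0820). Dnaaf1 overlapped among all regions, at 0.48 ± 0.31 in RT against ST (adjusted p = 0.308).

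Of the 3 measured regulators 1 was called. Rfx3 had signals of 773, 616 and 519 in RT, 238, 240.0, 192 and 278 in SV, and 209, 258, 187 and 321 in ST. RT was higher for Rfx3 than ST (1.40 ± 0.22, adjusted p = 3.72e-04) and than SV (1.42 ± 0.22, adjusted p = 0.00104), and SV and ST overlapped. Centring each array on its median gave Rfx3 0.97 in RT against ST, just under 2-fold and so not called (adjusted p = 0.00351). The Rfx2 probe set chosen by the rule was dim, with 30.6, 47.0 and 80.5 in RT, 10.8, 24.7, 51.7 and 14.2 in SV, and 58.8, 15.2, 41.4 and 51.2 in ST, and its change of 0.39 ± 0.65 was not called (adjusted p = 0.727). Of the 4 probe sets of Rfx2, another read 212, 209.6 and 141 in RT, 49.5, 12.6, 16.5 and 46.5 in SV, and 6.46, 8.47, 5.25 and 39.2 in ST, a log2 fold change of 4.16 (adjusted p = 7.86e-04) that was noticed after the values had been seen. Ccno, a cyclin of the centriole multiplication programme, had signals of 141, 148 and 48.2 in RT, 156, 96.1, 108 and 132 in SV, and 107, 123, 64.3 and 47.7 in ST, with overlap among all regions and 0.33 ± 0.44 in RT against ST (adjusted p = 0.656). The forkhead gene Foxj1, not among the 45, had signals of 2264, 2399 and 732 in RT, 295, 139, 131 and 189 in SV, and 16.8, 27.2, 33.3 and 18.5 in ST.

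Among the other ciliary proteins, Pifo (pitchfork), which acts at the ciliary base, had signals of 1800.1, 1539.7 and 762 in RT, 355, 118, 84.8 and 208 in SV, and 14.3, 12.3, 19.5 and 20.6 in ST. Its 3 regions were far apart, with 6.30 ± 0.45 in RT (adjusted p = 1.15e-06) and 3.34 ± 0.42 in SV (adjusted p = 7.63e-04), both against ST. The change of Pifo in SV was close to that of Cfap52 (3.24), and with signals below 32 set to 32 these were 2.37 and 2.77. Fam183b, an axonemal gene, varied widely among RT arrays, with 1039, 1137 and 97.9 in RT, 108, 24.7, 44.8 and 41.3 in SV, and 21.8, 14.995, 5.84 and 3.74 in ST. RT replicate 3 of Fam183b lay below the highest SV array, while RT as a whole was called against ST (5.73 ± 0.86, adjusted p = 2.73e-04) and against SV (3.37 ± 0.86, adjusted p = 0.0193). The adenylate kinase genes Ak7 and Ak8, whose products recycle adenine nucleotides in cilia, had 1.53 and 3.62 in RT against ST.

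**Figure D2:**
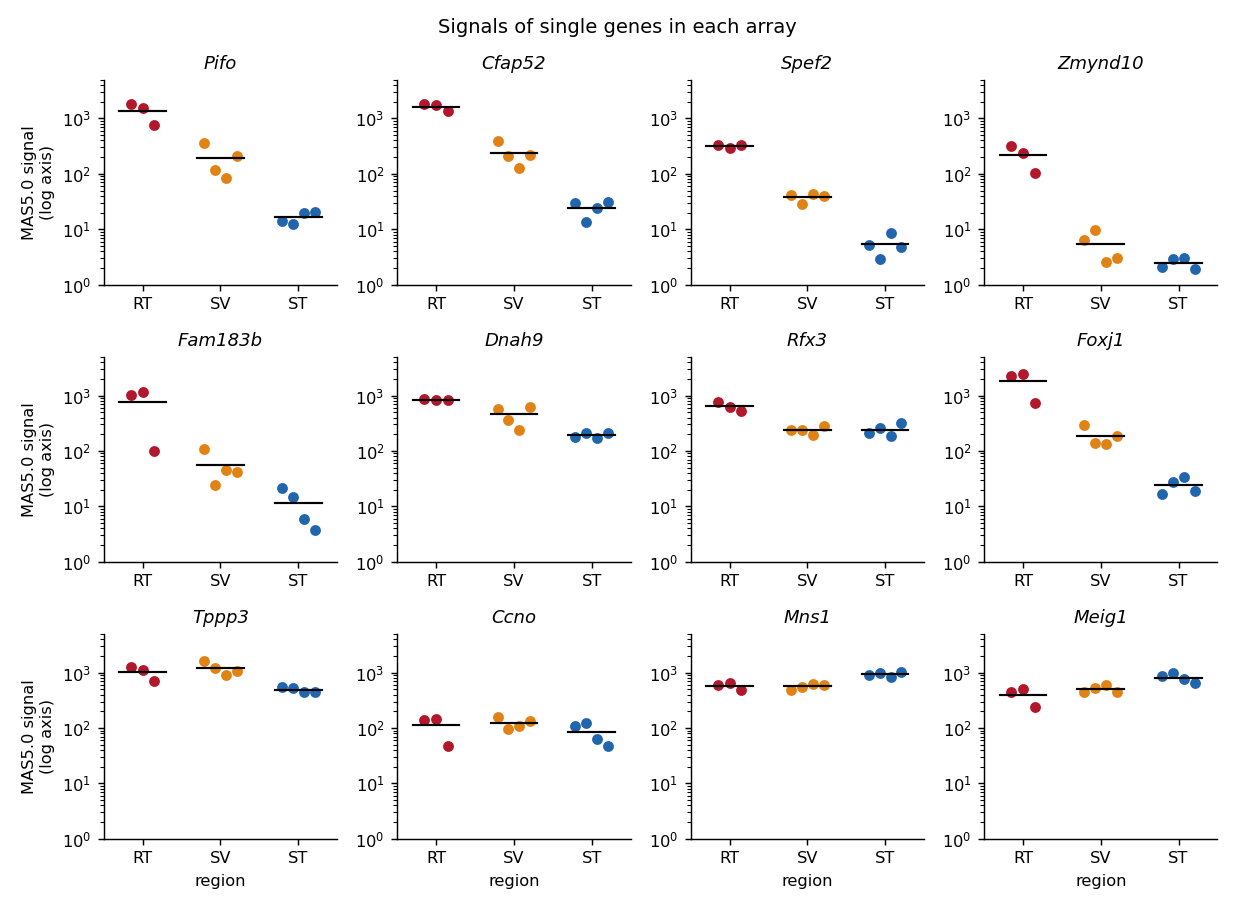
MAS5.0 signal on a log axis in each array (points) and its mean (line) for 11 members and the regulator gene Foxj1 in RT, SV and ST. Pifo, Cfap52, Spef2 and Foxj1 step down over RT, SV and ST, Zmynd10 is high in RT alone among these regions, Tppp3 overlaps between SV and RT, and Mns1 and Meig1 are highest in ST.

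Fewer motile cilium genes separated SV from ST. In SV 9 of the 42 members were called higher than in ST (21.4%, against 2.39% of all genes) and none was called lower (against 0.0769% of all genes), while 3 were lower at an unadjusted p under 0.05 and 1 by the methods' t-test without adjustment. The 9 were Pifo, Cfap52, Spef2, Enkur, Dnali1, Rsph4a, Cfap126, Tppp3 and Dnah9, of which Spef2 was the central pair gene and Rsph4a the radial spoke gene. With a floor of 32, Spef2, Rsph4a, Dnah9 and Dnali1 were not called in SV and Drc1 was added, and with log2(signal + 32) Spef2, Rsph4a and Dnali1 were not called. The median log2 fold change over the members was 1.06, against 0.02 over all genes, and 7 of the 9 were higher in RT than in SV as well. Between RT and SV, 25 members were called higher in RT (59.5%, against 6.41% of all genes) and 0 lower (against 4.39% of all genes), none being lower at an unadjusted p under 0.05 either or by the methods' t-test. RT and SV were compared with the same ST arrays. Dnah9, Dnali1 and Rsph4a lost the call in SV in most fits that left out a single array, which gave 6–10 members called. Dnah9 and Rsph4a kept it only without RT replicate 3 or SV replicate 3, and Dnali1 also without ST replicates 2 or 3. Rsph4a lost the call in SV with quantile normalization and with median centring as well. Without RT replicate 1 the count in RT against SV was 15 members. With the replicate number as a block, 11 members were higher in SV than in ST, with Drc1 and Fam183b added, and 31 were higher in RT than in SV, with Dnah9, Dnaic1, Ccdc114, Ccdc65, Tekt4 and Ak8 added.

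Tppp3, a tubulin polymerization gene, broke with the other 8. Its signals were 1249, 1112 and 709 in RT, 1591, 1229, 905 and 1080.3 in SV, and 553, 519.8, 448 and 452 in ST. SV and RT overlapped and both lay above ST, with 1.02 ± 0.22 in RT (adjusted p = 0.00319) and 1.26 ± 0.20 in SV (adjusted p = 0.00401). Against SV, the log2 change in RT was -0.24 ± 0.22 (adjusted p = 0.541). The call of Tppp3 in RT, which was just over 2-fold, was lost under 6 alternatives of scaling, offset, block or replicate set and without RT replicates 1 or 2 or ST replicates 3 or 4, with changes of 0.60 to 0.98.

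**Figure D3:**
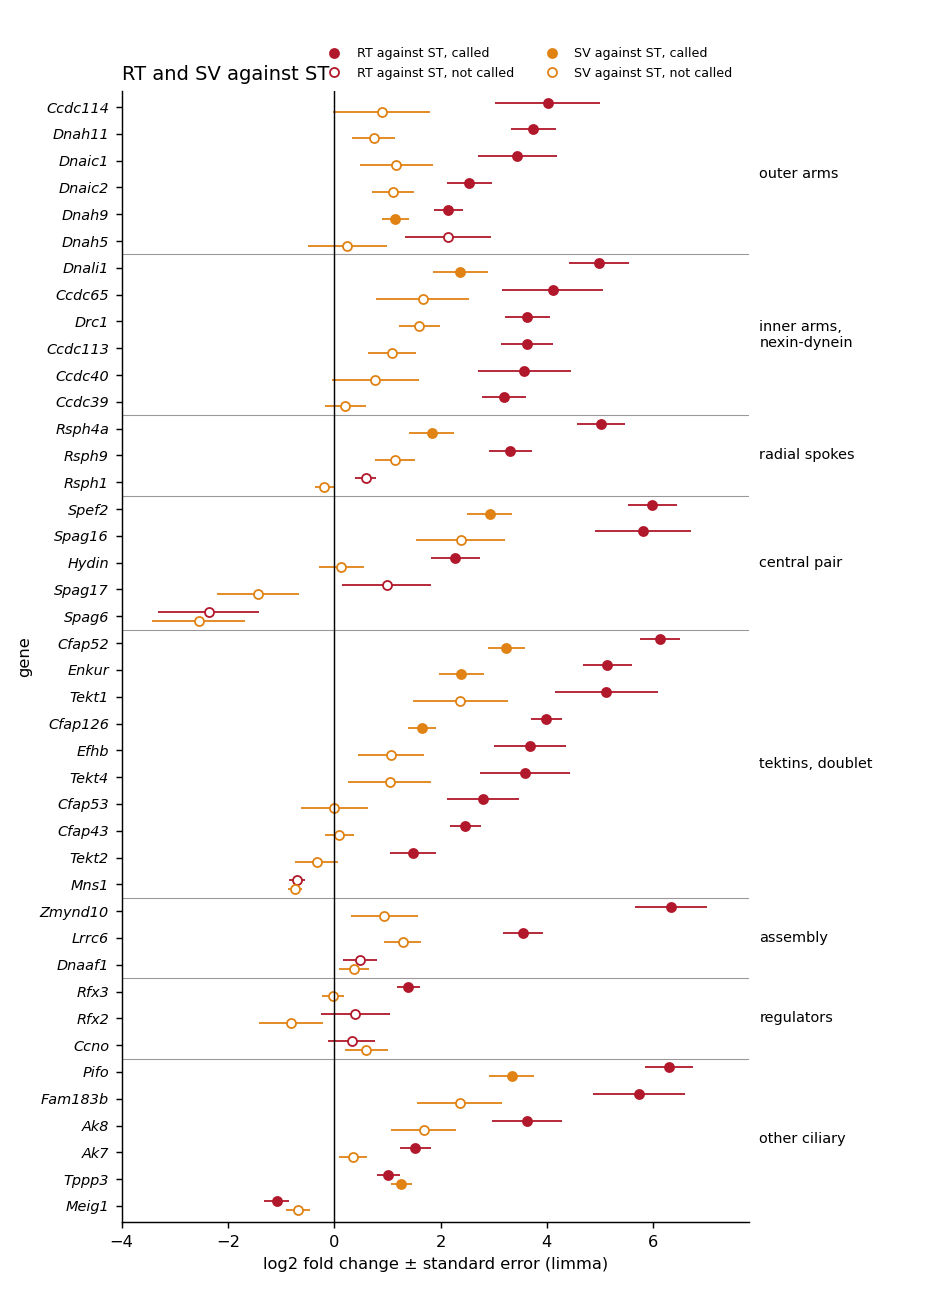
Log2 fold change ± standard error (limma, x axis) of each measured motile cilium gene (y axis, grouped by role) in RT against ST and in SV against ST. Filled points were called, 34 in RT and 9 in SV, and for most genes the SV point lies between 0 and the RT point.

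SV arrays held a part of the RT signal of these genes, and the part differed between arrays. The excess of the RT mean over the ST mean on the linear scale was taken for the 33 members called higher in RT, and the slope through 0 of each SV array's excess on it gave 26.0%, 13.7%, 7.52% and 12.85% in SV replicates 1 to 4. Their mean was 15.02% ± 7.803 (SD, n = 4). Each gene enters the slope by its squared RT excess, so that the brightest genes count most. Cfap126, with the highest RT mean of the 33 (3427, against 208 in ST), had 15.03% by itself. The median over single members was 11.8%, with quartiles of 5.76% and 13.4% and a range of -9.84% to 133.6%. For all 2272 genes called higher in RT the same slopes were 38.9%, 25.01%, 11.4% and 28.4%, and for 11 rete testis epithelium markers 27.8%, 13.7%, 10.3% and 21.85%. The members' slope was thus below that of all RT genes in each SV array, and both were highest in SV replicate 1 and lowest in SV replicate 3. No test was made of these differences. Among single members, Zmynd10 had 1.34%, Ccdc39 0.903%, Spef2 10.6%, Pifo 12.96% and Dnah9 40.15% of the RT excess in SV.

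**Figure D4:**
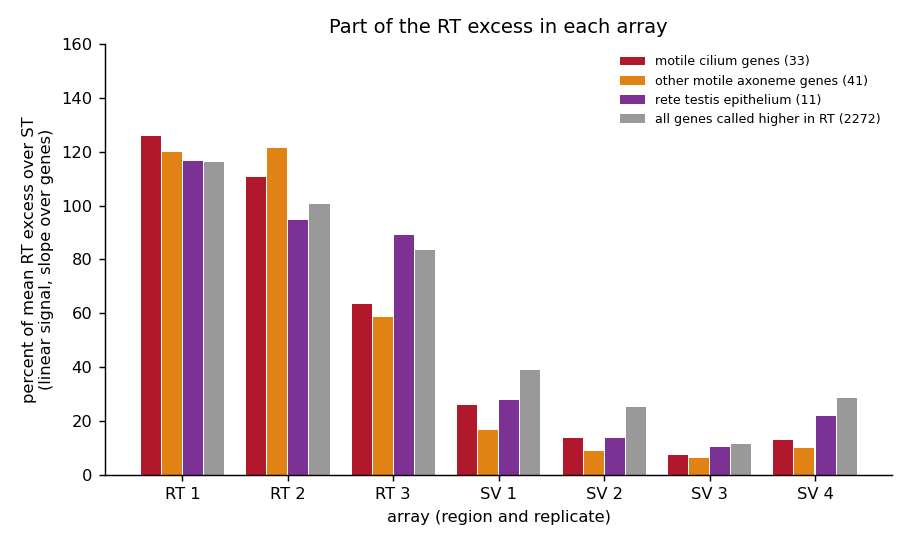
Percent of the mean RT excess over ST (y axis, slope over genes on linear signal) found in each RT and SV array (x axis) for 33 motile cilium genes, 41 other axoneme genes, 11 rete testis markers and all 2272 genes called higher in RT. RT replicate 3 holds 63.3% for motile cilium genes and 83.4% for all genes, and in SV replicate 1 these are 26.0% and 38.9%.

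The RT arrays were not alike in these genes. Relative to the ST mean, the 42 members had a median log2 signal of 3.81, 3.58 and 2.87 in RT replicates 1 to 3, with 1.51, 0.37, 0.73 and 1.26 in SV replicates 1 to 4 and -0.16 to 0.16 in ST. Of the 33 members called higher in RT, 32 had their lowest RT signal in replicate 3 (97.0%). Spef2 was the exception, although another of its probe sets read 155, 124 and 30.4 in RT replicates 1 to 3. Of all 2272 genes called higher in RT, 1418 had their lowest RT signal in replicate 3 (62.4%). The signal of these 33 members in RT replicate 3 was at the median 55.9% of the mean of the other RT arrays, with a range of 9.0% for Fam183b to 107% for Spef2. On the linear scale RT replicates 1 to 3 held 126%, 111% and 63.3% of the mean excess of the members, 120%, 121% and 58.7% of that of 41 other axoneme genes, 116%, 94.65% and 89.0% of that of rete testis markers, and 116%, 100.5% and 83.4% over all RT genes.

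Markers of other cell types moved between the same arrays. Over all genes, 12.5% were called higher and 7.34% lower in RT than in ST, and 2.39% higher and 0.0769% lower in SV. Markers of the absorptive cells of the efferent ducts, which lie beside the multiciliated cells there, were called higher in RT than in ST in 9 of 13 cases and higher in SV in 2. The higher ones included Cftr, Aqp1 and Aqp9, with log2 fold changes of 5.82, 5.71 and 4.29 in RT, while 1 of the 13 was lower at an unadjusted p under 0.05 (limma). The summed signal of the 13 was 17813, 16804 and 8044 in RT replicates 1 to 3, 3044–6833 in SV and 2882–4141 in ST, and 40.65% of the mean RT excess of the higher ones was found in RT replicate 3. These markers did not fall together there: RT replicate 3 had 106% of the mean of the other RT arrays for Cftr, 24.2% for Aqp1 and 22.25% for Aqp9. Of 12 measured markers of epididymal secretory cells, Wfdc2 alone was called (6.35). Rete testis epithelium markers were called higher in 11 of 14 cases, led by Mal2, Dsp and Emx2, and their signals summed to 37894–52863 in RT arrays, 11259–16426 in SV arrays and 7161–8131 in ST arrays. Signals of Sertoli cell markers summed to 99906–132870 in RT arrays, 170482–224797 in SV arrays and 205583–266454 in ST arrays, and their median log2 signal against the ST mean was -1.96, -1.67 and -0.98 in RT replicates 1 to 3. Peritubular myoid and smooth muscle markers were called lower in RT in 3 of 6 cases and in none in SV (limma, 0 at an unadjusted p under 0.05), with medians against the ST mean of -1.55, -1.43 and -0.26 in RT replicates 1 to 3. Of 6 endothelial markers, Kdr (3.85) and Emcn (1.32) were called higher in RT, and Kdr also in SV (2.10). No marker of these lists was at a signal of 0. The part that duct tissue or tubule tissue in the pieces had in the changes of motile cilium genes was not tested.

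Germ cell genes were measured as well, since the flagellum shares the axoneme. In RT 10 of 14 spermatogonial markers, 6 of 16 spermatocyte markers and 2 of 20 spermatid markers were lower than in ST (against 7.34% of all genes). In SV none of the 50 was called lower (limma, 7 lower at an unadjusted p under 0.05), against 0.0769% of all genes. The spermatogonial list also held Gfra1, a receptor gene for GDNF, which was called higher in RT (4.34) and in SV (1.97). The 20 spermatid markers together summed to 601–825 in RT arrays, 979–1164 in SV arrays and 1268–1571 in ST arrays. Much of these sums came from Spaca1 alone, at 212–248 in RT, 478–627 in SV and 738–908 in ST. Odf1 and Spaca1 were the spermatid markers called lower in RT, and the structural genes Prm1, Prm2, Tnp1 and Tnp2 were not called.

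**Figure D5:**
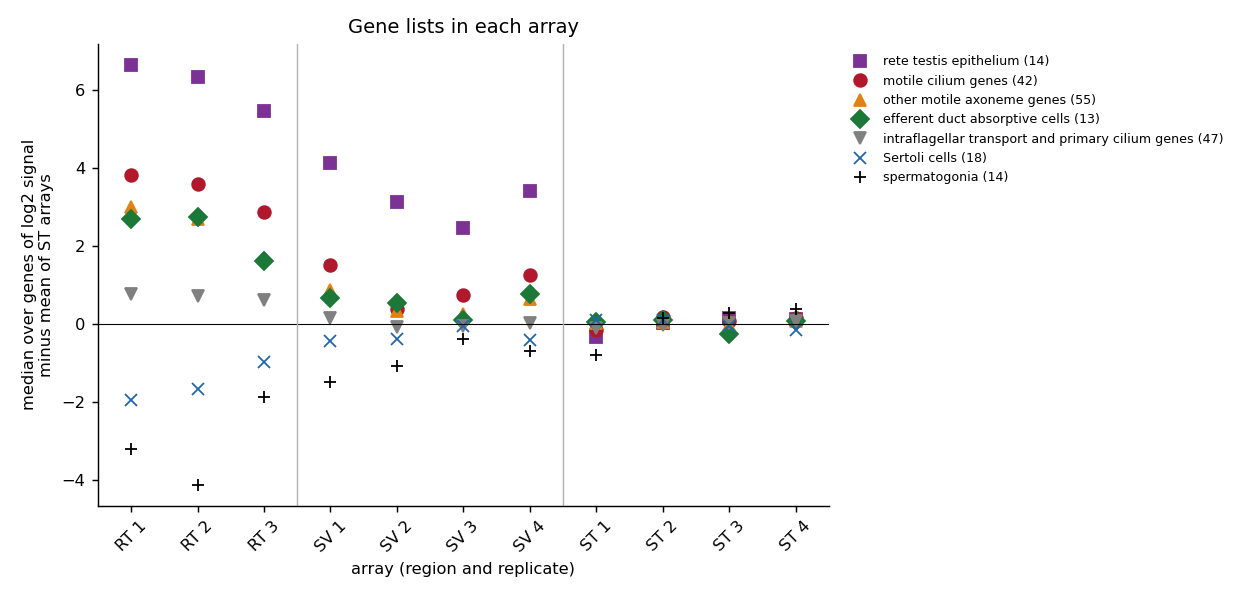
Median over genes of log2 signal minus the mean of the ST arrays (y axis) for 7 gene lists in each array (x axis), with the number of genes in parentheses. Motile cilium genes lie at 2.87–3.81 in RT and 0.37–1.51 in SV, rete testis markers lie above them and Sertoli cell and spermatogonial markers below 0 in RT and SV.

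Axoneme genes outside the 45 followed the same order of regions. Of 55 other motile axoneme genes, 41 were called higher in RT than in ST (74.5%, against 12.5% of all genes) and 8 in SV (14.5%, against 2.39%). In RT 0 were called lower (against 7.34% of all genes), while 1 was lower at an unadjusted p under 0.05 (limma). Their median log2 fold change was 2.31 in RT and 0.37 in SV. The largest changes were those of Dynlrb2, a dynein light chain gene (8.10 in RT and 4.74 in SV), Lrrc34 (6.504 and 3.68) and Capsl (6.05 and 3.36). Among 15 other regulators of multiciliated cells, 5 were higher in RT (33.3%, against 12.5% of all genes) and 1 was lower (6.67%, against 7.34%), with a median of 0.17. Foxj1 changed most (6.10 ± 0.43 in RT, adjusted p = 9.59e-07, and 2.95 ± 0.40 in SV, adjusted p = 0.00124), followed by Myb (3.16) and Deup1, which builds the deuterosome that multiplies centrioles (2.82). Myb, singled out after its values had been seen, was weak in RT replicate 3. Its signals were 518, 754 and 82.7 in RT, 43.7, 27.9, 20.2 and 50.002 in SV, and 36.3, 48.0, 50.6 and 18.4 in ST. The 15 regulators as a list did not share this: RT replicate 3 was the lowest RT array in 5 of them. At the median it had 100.8% of the mean of the other RT arrays. Plk4, a kinase that starts centriole duplication in dividing cells, was lower in RT (-1.22, adjusted p = 0.00604).

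Genes of intraflagellar transport and of the primary cilium, which non-motile cilia also need, were called in fewer cases than the motile cilium genes. Of 47 measured, 13 were higher and 1 was lower in RT than in ST and none was called in SV (limma, while 2 had an unadjusted p under 0.05 and were higher and 4 had one and were lower), with a median log2 fold change of 0.68 in RT. The leading genes Ift80, Ift81 and Ift57 had 2.04, 1.76 and 1.71 in RT against ST and 0.34, 0.16 and 0.21 in SV against ST. Under median centring 7 of these genes were higher and 2 lower in RT, against 1452 higher and 2724 lower of all 18194 genes.

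Promoters of the members were examined for the sites of the regulators named above, since most members moved together between regions. A RefSeq promoter, 250 bases before to 50 bases after the transcription start on GRCm38.p6, was matched by gene ID for 35 of the 42 measured genes. Rsph1, Rsph4a, Cfap53, Efhb, Lrrc6, Dnaaf1 and Tppp3 were the others. Where a gene had several promoters, a match in any of them counted. The RFX core site GTTGCC stood on either strand in 18 of the 35 (51.4%), against 14.1% of 27025 genes in the promoter table. The full RFX X-box, made of a pair of core sites with 0 to 3 bases between them and searched with its degenerate letters on both strands, stood in 7 of the 35 (20.0%), against 1.75% of all genes, and can overlap a GTTGCC match. The forkhead site GTAAACA stood in 2 of the 35 (5.71%), against 4.05% of all genes. For other motile axoneme genes the core site and the X-box stood in 45.8% and 16.7% of 48 promoters, and for intraflagellar transport and primary cilium genes in 45.2% and 16.7% of 42. These are matches of letters, and no binding was measured. The X-box matches of the 7 members follow, with the X-box in capitals and up to 25 bases on either side but none further than 25 bases past the transcription start, read 5′ to 3′ on the strand of the gene. Of these 7 genes, 6 were called higher in RT than in ST and Ccno was not, beside 33 of all 42 measured members (78.6%).
Dnaic1: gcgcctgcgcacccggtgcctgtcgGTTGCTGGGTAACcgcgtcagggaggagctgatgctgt
Dnaic2: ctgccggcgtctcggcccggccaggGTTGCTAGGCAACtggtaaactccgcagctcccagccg
Spag16: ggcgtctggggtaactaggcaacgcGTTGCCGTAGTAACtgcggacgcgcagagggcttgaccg
Spef2: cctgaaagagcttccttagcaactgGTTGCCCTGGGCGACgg
Hydin: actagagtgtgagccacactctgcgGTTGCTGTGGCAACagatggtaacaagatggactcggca
Tekt2: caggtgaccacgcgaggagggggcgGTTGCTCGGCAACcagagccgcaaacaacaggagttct
Ccno: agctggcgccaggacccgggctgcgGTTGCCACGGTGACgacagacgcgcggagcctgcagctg

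The promoters lie at chr4:41569544-41569843 for Dnaic1 (plus strand), chr11:114727169-114727468 for Dnaic2 (plus), chr1:69826720-69827019 for Spag16 (plus), chr15:9748819-9749118 for Spef2 (minus), chr8:110266727-110267026 for Hydin (plus), chr4:126325639-126325938 for Tekt2 (minus) and chr13:112987552-112987851 for Ccno (plus), all on GRCm38.p6. Counted from the transcription start as base 0, the X-box began at -19 in Dnaic1, -33 in Dnaic2, -103 in Spag16, -21 in Hydin, -29 in Tekt2 and -219 in Ccno, and at 8 in Spef2, inside the transcribed part. For Tekt2 this holds for the promoter given. The same X-box lay at -71 from another listed start of Tekt2, and a further Tekt2 promoter held no match. In RT against ST these 7 genes spread from 5.99 for Spef2 and 5.81 for Spag16 to 3.44 for Dnaic1, 2.54 for Dnaic2, 2.28 for Hydin, 1.48 for Tekt2 and 0.33 for Ccno on the log2 scale. Zmynd10, Cfap52 and Pifo, with 6.33, 6.13 and 6.30, held no X-box match in this window. Zmynd10 and Pifo held the core site, although not every listed promoter of Pifo did.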

How the data were processed

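RNA of each region of W/Wv testes was isolated by the authors (RNeasy Micro Kit) and labelled for hybridization (GeneChip 3′ IVT Plus kit). The authors deposited probe set intensity values computed with MAS5, on a linear scale and scaled so that the mean without the lowest and highest 2% of values is 500.0 in every array. Depth has no meaning for arrays, and the number of arrays limits the precision. Log2 of these signals was fitted over all 45101 probe sets and 11 arrays with limma 3.58.1 (lmFit, eBayes with trend) in R 4.3.3, with no filter and no added constant.

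Probe sets were named from the platform annotation of the array, in which 34958 carry 1 symbol, 932 several and 9211 none. Of the members, 15 have several probe sets. Where they disagreed in a call, the text keeps the one with the highest mean, except where it says otherwise. Members, other gene lists and the rule on which genes to name were chosen with earlier results of these data known. Signals in every array are given for the pair of genes with the largest change in each role group, all regulators, the 8 members with the largest change among those called in SV, and members called lower in RT. Dnah9 and Mns1 were added after their values were seen.

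Same-numbered arrays of different regions deviated together from the region means, with correlations of 0.264–0.652 over 21904 probe sets with a mean signal over 100, against at most -0.285 between replicates 1 and 2 and replicates 3 and 4. Other numbers within a set reached 0.163–0.451, and over all probe sets the same numbers reached 0.0692–0.190. The ranges for same and other numbers within a set overlapped. RT replicate 1, for example, correlated at 0.264 with ST replicate 1 and at 0.295 with ST replicate 2. The check thus separated replicates 1 and 2 from replicates 3 and 4, and could not decide whether single numbers pair the arrays. The values reported come from the fit without a block, and those with the replicate block are given where they change a call. Values were recomputed after leaving out each array, within each set of replicates, with either block, with fits of 2 regions at a time, with another probe set for a gene, without a fold threshold and without the trend in eBayes. Signals were also centred on the median, quantile normalized, raised by 32 before the log, floored at 32 or restricted to brighter probe sets, and the methods' t-test was run unadjusted and adjusted. The limma fit was tested on simulated log2 signals with known changes added to RT, for RT against ST, and the other steps were not tested in this way. Python 3.11.15 with matplotlib 3.10.9 drew the figures. The study's staining, qRT-PCR and transplantation experiments were not analysed here.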

Additional observations from a re-analysis of the deposited data

Results flagged for a closer look

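Among the 84 groups of 4 arrays that the 42 genes form in SV and in ST, 6 held 1 array whose gap to its neighbour on the log2 scale was a larger share of the whole range than Dixon's critical value for 4 arrays, and chance alone gives about 1 in 20. In SV replicate 2 these were Cfap53, with a signal of 8.73 against 77.3–85.4 in the other SV arrays, Ccdc65 (6.26 against 26.5–35.4) and Spef2 (28.3 against 40.2–43.0), all low. In ST replicate 1 they were Ccdc113 (12.4 against 27.7–31.2) and Dnaaf1 (72.2 against 139.9–157.8), both low. In ST replicate 2 Cfap126 was high, at 240.3 against 194–201.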

How the results depend on the processing

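All alternatives were compared by the number of members called and by each member's log2 fold change. Of members higher in RT than in ST, 33 in the fit reported, 27–34 were called under every alternative except replicates 3 and 4 alone, which hold a single RT array and gave 11 (and 658 of all genes, against 2272). The count of members lower in RT was 0 under the methods' t-test with adjustment and in replicates 1 and 2 alone, 3 with median centring, 2 with no fold threshold, and 0–2 when 1 array was left out. For SV higher than ST, with 9 called, the count was 0 under the methods' t-test with adjustment and in replicates 3 and 4 alone, and 6–13 otherwise, while the count lower in SV was 1 under the methods' t-test without adjustment and with no fold threshold. For RT higher than SV, with 25 called, the count was 14 under the methods' t-test with adjustment, 0 in replicates 3 and 4 alone (17 at an unadjusted p under 0.05, and 0 of all genes in both comparisons with SV) and 15–27 when 1 array was left out. The cause of these differences was not tested. With the replicate block, 117 of 126 fold changes kept their side of the threshold, 8 gained a call and 1, Tppp3 in RT, lost it, and counts were 32 and 1 for RT against ST, 11 for SV and 31 for RT against SV. The part of the RT excess found in SV, 15.02%, was 11.4–17.5% without single arrays, 11.8% as a median over members and 14.5% after quantile normalization. With the largest-variance probe set, Dnah9 in SV against ST was -0.96 and Dnaic2 in RT against SV was -0.28, both opposite in sign to the chosen probe set and not called. Leaving out each array in turn, 31 of the 34 calls in RT against ST, 6 of 9 in SV and 15 of 25 in RT against SV held in every case. ST signals of 30 members lay below the array median in all 4 ST arrays, so that the size of their fold changes rests on dim values: the median over the 42 members was 2.48 with a floor of 32, against 3.50.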
